A study of Mus musculus with 20 samples.

Results

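Genes for the proteins of the cytosolic ribosome were followed through 10 sorted populations of mouse blood-forming and blood cells. A gene was a member if its platform symbol was Rpl or Rps followed by a number (with an optional a, x or l ending), Rplp0 to Rplp2, or Rpsa, and if it had a probe set annotated with that symbol alone. By this rule 49 of 18193 genes were members, 26 of the large and 23 of the small subunit. Each gene was read from its probe set with the highest mean intensity over the 20 arrays. Of the 49 members, 47 were bright enough in at least 1 population to be tested, among 14063 genes tested in all. Rps16, with a mean intensity of 3.5, and Rpl3l, the paralog of Rpl3 known from striated muscle, with 7.62, did not pass that filter.

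The cells came from mice of the C57BL/6 background, without any named treatment or engineered allele, and each population had 2 biological replicates, 1 Affymetrix Mouse Genome 430 2.0 array each. KSL are the cells so named in the labels, a fraction known to hold haematopoietic stem cells and early progenitors, and LinNeg are cells without lineage markers. The mature lymphoid populations were B, sorted by B220, the T lymphocytes CD4T and CD8T, NK, sorted by NK1.1, and NKT, which carry both CD3ε and NK1.1. The other mature cells were Erythroblast, sorted by Ter119, Neutrophil, sorted by Gr-1, and Monocyte, sorted by Mac-1, which the labels call monocytes/macrophages. The tissue, the age and sex of the animals, any pooling of animals and the full gates are not stated in the labels, so the p-values measure the spread between these replicates.

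A ribosome joins a small subunit, which decodes the messenger RNA, to a large subunit, which forms the peptide bonds. Its proteins are needed in near equal numbers, and their messenger RNAs share a tract of pyrimidines at the 5′ end (the TOP motif) through which mTORC1 and LARP1 regulate their translation and stability. In blood the family is known for Diamond-Blackfan anaemia, in which loss of 1 copy of a ribosomal protein gene such as RPS19 impairs red cell production, and for RPS14 in the 5q deletion syndrome.

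Each array had been scaled by the depositors so that its mean intensity without the lowest and highest 2% of probe sets was 100, and no 2 arrays held the same values. RNA of 3000 cells was amplified in 2 cycles, and for Gapdh the 3′ control probe set read 2.36 to 6.10 times the 5′ one, with the lowest ratios in Neutrophil. Each sorted population carried its own markers, with 3 observations that touch results below. The summed intensity of 5 neutrophil granule and receptor markers was 32449 and 39646 in the Monocyte arrays, against 42302 and 52658 in Neutrophil. The NK arrays carried 6 monocyte and macrophage markers at a sum of 10672 and 12731, against 5760 and 10542 in Monocyte itself and 982 and 2048 in NKT. Of 4 plasma cell genes, LinNeg carried Igha at 6370 ± 288 and Jchain at 2958 ± 255 (SD, n = 2). The other genes were not raised there: Mzb1 read 78.8, against 1476 in B, and Sdc1 44.0, against 65.2 in KSL. The part of such cells in the LinNeg comparisons was not tested.

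The probe sets of the members fell into a bright and a dim class, and the class bears on every count below. In 35 genes the probe set had a mean intensity from 2468 (Rpl22l1) upward, and in 14 it lay at or below 541 (Rps27l), with none between. The line of 1000 drawn between them was chosen after the values had been seen. Of the dim genes 5 are paralogs of another ribosomal protein (Rpl3l, Rpl7l1, Rpl39l, Rps4l, Rps27l), and 9 are canonical members: Rpl12, Rpl14, Rpl27a, Rpl37, Rpl39, Rps6, Rps16, Rps25 and Rps27. All 9 also had probe sets whose annotation names them together with other symbols, which the rule leaves out. The brightest such shared probe set of each of the 9 had a mean intensity of 4952 to 9666, against 3.5 to 523 for their own, and it changed less between populations, as given with the erythroblasts below. Whether a dim probe set follows the abundance of its gene's messenger RNA was not tested. By contrast 33 members were among the 100 genes with the highest mean intensity of all 18193.

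A tract of pyrimidines near the transcription start, transcribed or not, was found in 23 of 43 members. In the RefSeq promoter table (GRCm38.p6) 43 of the 49 had an entry. Of these, 23 (53.5%; 21 by the first start listed alone) held an uninterrupted run of at least 8 C or T on the sense strand within 25 bases of an annotated start, against 23% of 11297 tested genes with an entry. Runs wholly before the start count too. That of Rps25 has 14 bases and begins at -22, and that of Rpl39l has 8 and begins at -25. The count is therefore not one of TOP motifs. The 6 stretches below reach from 25 bases before the start to its first 20 bases, so that the 26th letter is the first transcribed base, and are written 5′ to 3′ on the sense strand. They were chosen to show members with such a run at the start (the first 4) beside 2 strongly varying members without a run of 8. Capitals mark the run of at least 8 C or T.
Rpl7a: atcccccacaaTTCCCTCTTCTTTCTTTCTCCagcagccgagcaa
Rpl35: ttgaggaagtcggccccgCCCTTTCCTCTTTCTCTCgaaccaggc
Rps18: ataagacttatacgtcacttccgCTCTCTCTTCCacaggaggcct
Rpl22l1: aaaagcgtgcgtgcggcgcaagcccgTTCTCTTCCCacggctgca
Rpl12: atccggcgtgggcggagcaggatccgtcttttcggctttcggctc
Rpl10a: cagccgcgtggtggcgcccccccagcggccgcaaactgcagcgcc

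These lie at chr2:26910782-26910826 (plus strand, Rpl7a), chr2:39005112-39005156 (minus, Rpl35), chr17:33955646-33955690 (minus, Rps18), chr3:28805483-28805527 (plus, Rpl22l1), chr2:32961687-32961731 (plus, Rpl12) and chr17:28328446-28328490 (plus, Rpl10a). The run was 21 bases long in Rpl7a, 18 in Rpl35, 11 in Rps18 and 10 in Rpl22l1, while the longest in Rpl12 and Rpl10a had 7 bases. That of Rpl12 began at transcribed base 2. In the 300 bases of the table's promoters (250 before and 50 after the start, both strands), CCGGAAG, the core bound by ETS factors such as GABP, occurred in 48.8% of the 43 members and in 17.9% of tested genes. AAGATGG, part of the YY1 motif, occurred in 18.6% and 8.08%, and TATAAA in 14% and 9.98%. For GGGCGG, the GC box, the shares were 58.1% and 63.6%. Members with and without a run of at least 8 near the start differed little in the largest contrast described below: the median log2 difference between lymphoid and myeloid cells was 1.40 over 23 genes with it and 1.36 over 18 tested genes without it. Since such a run need not be transcribed, this does not compare genes with and without a TOP motif.

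Levels of the ribosomal protein genes were highest in the T cell populations and lowest in Neutrophil. On the log2(intensity + 6.75) scale the median over the 47 members was 13.44 and 13.12 in the 2 CD8T arrays, 13.09 and 12.97 in NKT, and 13.01 and 13.06 in CD4T. It was 12.96 and 12.74 in B, 12.68 and 12.56 in LinNeg, 12.64 and 12.30 in KSL, and 12.56 and 12.32 in NK. Below these came Erythroblast with 12.08 and 12.28, Monocyte with 11.79 and 12.01, and Neutrophil with 10.79 and 10.94. Neighbours in this order overlapped array by array for NKT with CD4T, LinNeg with KSL and KSL with NK, and the widest step was that from Monocyte to Neutrophil. The summed intensity of the 49 members was 4.75% of the array's signal in CD8T (mean of 2 arrays), 3.22% in KSL, 2.42% in Erythroblast, 2.31% in Monocyte and 1.40% in Neutrophil. Since every array was scaled to 1 trimmed mean, these are shares of the measured RNA: fewer cells that express a gene and less of its RNA per cell cannot be told apart, nor can the amount of RNA in a cell be read from them. The Gapdh 3′ to 5′ ratio, a sign of RNA quality and amplification, moved with this order: its mean was 5.32 in CD8T, 4.61 in B, 4.58 in NKT, 4.33 in CD4T, 4.12 in KSL, 3.99 in LinNeg, 3.60 in NK, 3.22 in Monocyte and 2.42 in Neutrophil. Erythroblast, at 5.98, stood outside it. The same ratio for Actb followed the order only in part. It was lowest in Neutrophil (1.35) and Monocyte (1.45), but highest in LinNeg (2.56) and KSL (2.54). In CD8T it was 2.30, in NKT 2.16 and in Erythroblast 2.48. Between replicates the Gapdh ratio and the members' median were both higher in the first array of KSL (4.81 and 3.43) and of CD8T (5.71 and 4.94). They also moved together in LinNeg, B, CD4T, NK and Erythroblast. In NKT (ratios 4.50 and 4.65), Neutrophil (2.48 and 2.36) and Monocyte (3.34 and 3.10) they moved in opposite directions. The part of either ratio in the members' levels was not tested.

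**Figure D1:**
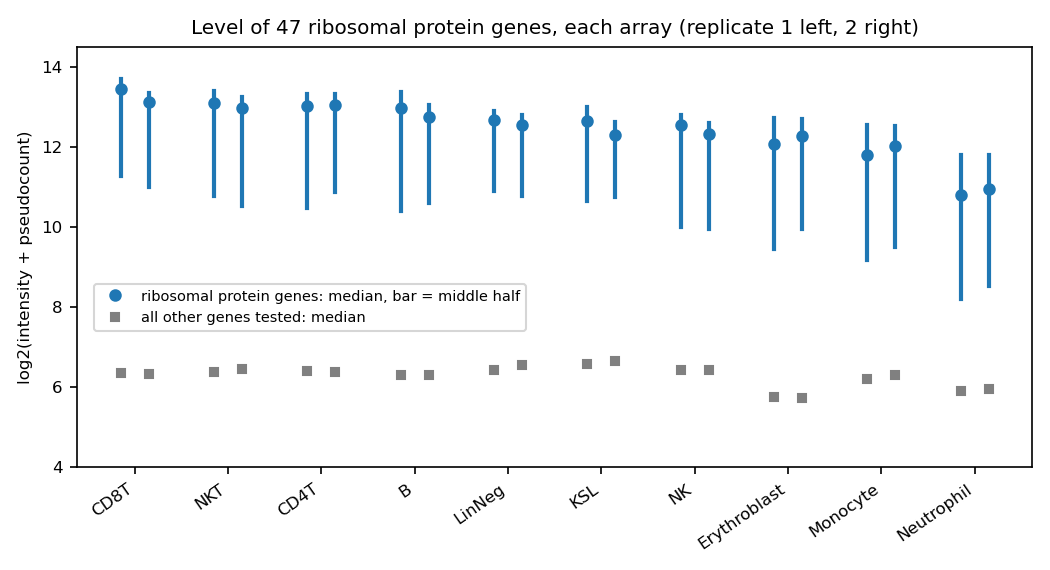
Median log2(intensity + pseudocount) of the 47 tested ribosomal protein genes in each array (blue circles, bars from the first to the third quartile) and of all other tested genes (grey squares), with the populations ordered by the members' median. The members run from 13.44 in the first CD8T array down to 10.79 in the first Neutrophil array, while the other genes lie between 5.7 and 6.7 throughout.

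The order was held by most single members. CD8T was the highest population for 37 of the 47 and Neutrophil the lowest for 33, with Erythroblast the lowest for 8 more. Among the 35 bright members CD8T was highest for 34 and Neutrophil lowest for 29. The range between the highest and lowest population mean of the bright members ran from 0.71 (Rps14) to 3.64 (Rps19) in log2 units with a median of 2.15, the same as the median range of all tested genes. Pearson's r of a member's 10 population means with the median profile of the members was above 0.8 for 34 of 47 members (median 0.94), as against 5.81% of the other tested genes (median 0.07); members make up that profile, and the 10 points share arrays and scaling, so this is a description. An F test over the 10 populations (limma, Benjamini-Hochberg adjustment over all genes) passed 0.05 for 46 of 47 members, in a background where 76.8% of all tested genes passed. The exception was Rpl39 (adjusted p = 0.080 by limma), read from a dim probe set.

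**Figure D2:**
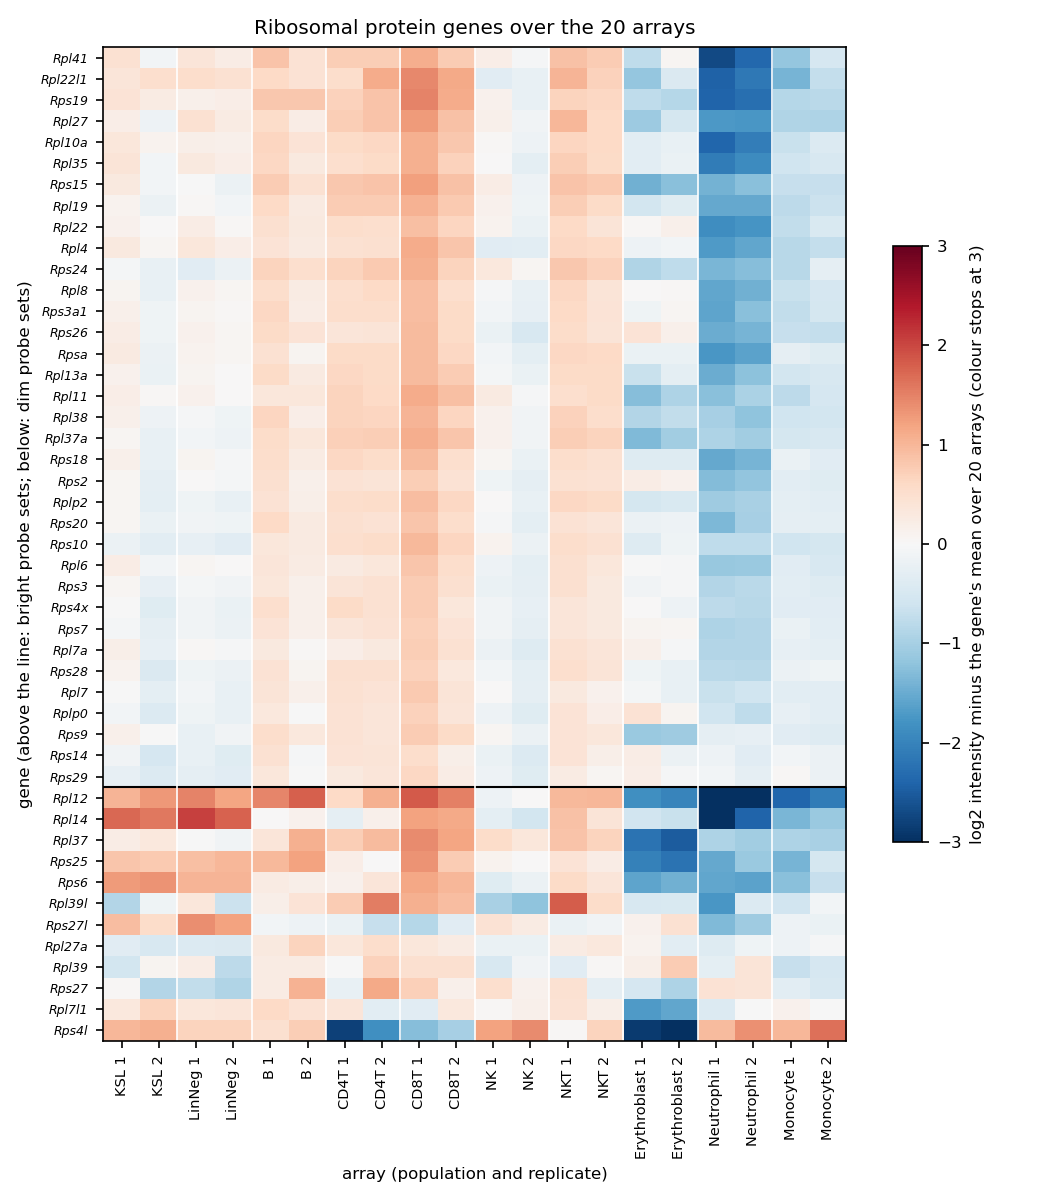
Log2 intensity of each tested ribosomal protein gene minus its own mean over the 20 arrays, genes in rows and arrays in columns, with 35 bright probe sets above the line and 12 dim ones below, each block ordered by the difference between lymphoid and myeloid cells. The Neutrophil columns are blue for most bright genes and near white for Rps14, Rps29 and Rps9, and the dim block holds patterns of its own, such as low Rps4l in CD4T, CD8T and Erythroblast.

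In the comparison of lymphoid with myeloid cells (the mean of B, CD4T, CD8T, NK and NKT minus the mean of Neutrophil and Monocyte), 31 of 47 members were higher in lymphoid cells and 1 was lower. A gene counts as higher, lower or called here and below at an adjusted p under 0.05 in limma together with a log2 difference of at least 1. Of all genes tested, 29.7% were called in this comparison, 17.6% higher and 12.1% lower. The median log2 difference was 1.31 over the members and 0.11 over all genes, and 46 of 47 members were positive. Calls among the bright members numbered 25 of 35, all higher in lymphoid cells.

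Rps19, whose human counterpart is the gene most often mutated in Diamond-Blackfan anaemia (gene at chr7:24884592-24889811 in GRCm38.p6), had intensities of 5972 and 5906 in B, 5493 and 6109 in CD4T, 9471 and 7374 in CD8T, 3701 and 2898 in NK, and 5386 and 5195 in NKT. In the myeloid arrays it read 636 and 697 (Neutrophil) and 1855 and 1937 (Monocyte), below every lymphoid array, and the log2 difference was 2.28 ± 0.08 (limma SE; adjusted p = 2.8e-14). Rpl41, the shortest ribosomal protein, rose by 2.33 ± 0.14 (adjusted p = 5.6e-11 by limma), from a myeloid mean of 2289 to a lymphoid mean of 9808. Rpl22l1, the paralog of Rpl22, rose by 2.32 ± 0.14 (adjusted p = 3.7e-11 by limma), from 690 to 3330. The largest difference of all, 3.84 ± 0.13 (adjusted p = 1.7e-14 by limma), was that of Rpl12, which lies at the base of the stalk where elongation factors bind. It was read from a dim probe set at 10.5 to 37.5 in the myeloid arrays and 162 to 667 in the lymphoid arrays. Rpl14, a large subunit protein also read from a dim probe set, followed with 2.45 ± 0.19 (adjusted p = 1.9e-09 by limma). For all 5 the lymphoid and myeloid arrays did not overlap. The brightest shared probe sets of the 9 canonical dim members gave a median of 1.02 in this comparison (range 0.20 to 2.54). The 8 tested probe sets of these genes' own gave 1.65 (range 0.38 to 3.84), so no shared one reached the value of Rpl12. Which of them follow the messenger RNA was not tested.

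The remaining called members spanned both subunits. Among them were Rpl10a (1.90 ± 0.08), Rpl27 (1.93 ± 0.11) and Rpl35 (1.74 ± 0.10) of the large subunit, and Rps15 (1.68 ± 0.09), which reaches toward the decoding centre, and Rps24 (1.56 ± 0.10) of the small one. Rpsa, the small subunit protein first described as a laminin receptor, differed by 1.41 ± 0.09. Of the stalk proteins Rplp2 was called (1.09 ± 0.08), and Rplp0 at 0.70 ± 0.09 was not, since it lay under a log2 difference of 1. The call went to 19 of 25 large subunit and 12 of 22 small subunit members, with medians of 1.40 and 1.08, and whether the subunits differed was not tested. With NK left out of the lymphoid mean, which was tried after the data had been seen because of its monocyte markers, 34 members were called and the median was 1.47. The count over all 14063 genes rose as well, from 4180 to 4466. The neutrophil markers in the Monocyte arrays are given above; their part in this difference was not tested.

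**Figure D3:**
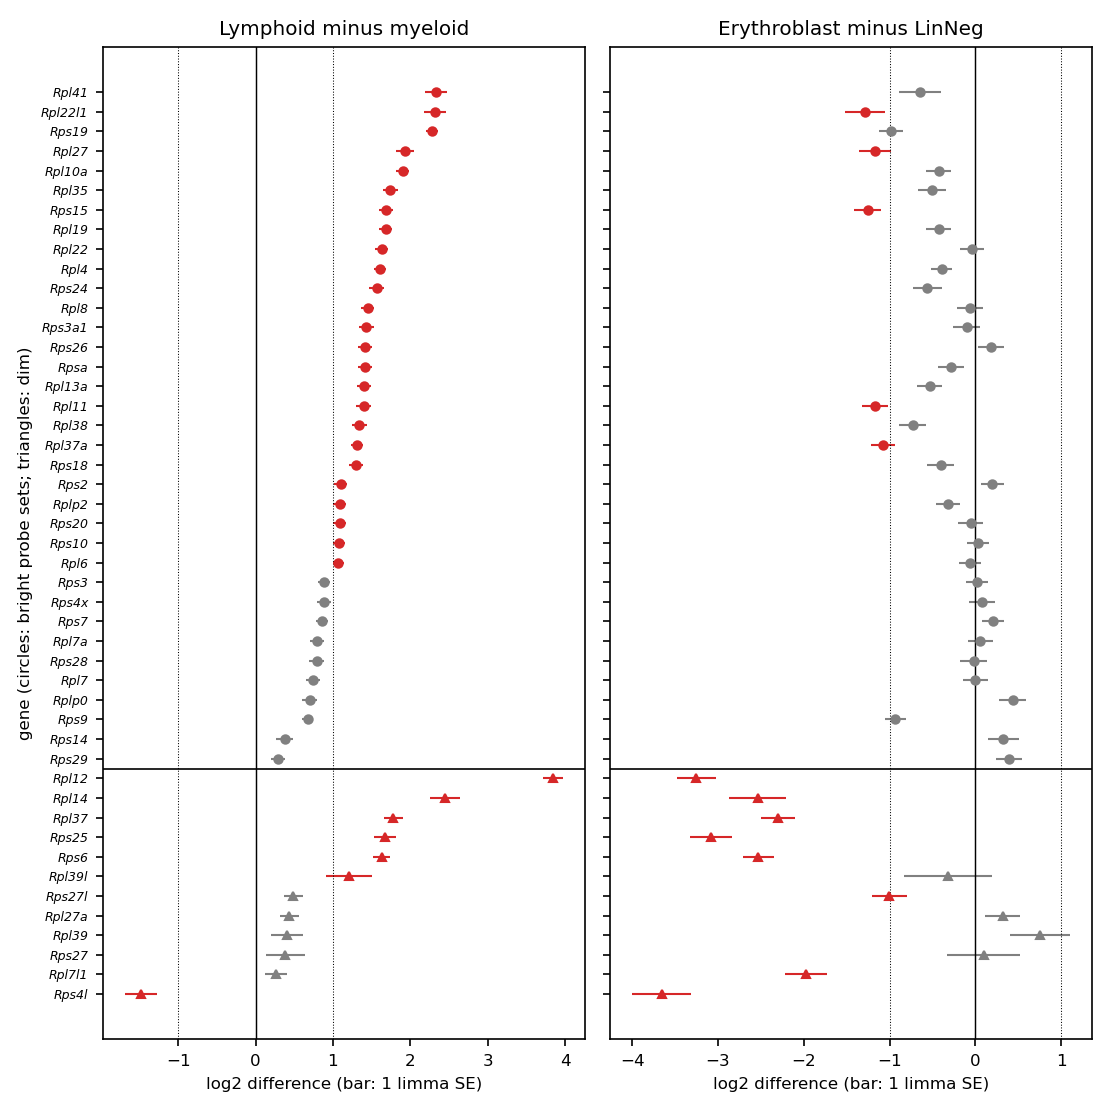
Log2 difference of each tested ribosomal protein gene with its limma SE, lymphoid minus myeloid on the left and Erythroblast minus LinNeg on the right; circles are bright and triangles dim probe sets, red marks called genes, and dotted lines stand at 1 and -1. On the left 31 genes lie in red beyond 1 and Rps4l alone beyond -1, and on the right 8 of the 13 called genes are dim.

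Neutrophil lay below Monocyte for 11 of 47 members and above it for none, where 12.2% of all tested genes were called, 2.62% higher and 9.56% lower. The median log2 difference was -0.71 over the members and -0.08 over all genes. Rpl10a read 1116 and 1393 in the Neutrophil arrays and 3703 and 4428 in Monocyte, a difference of -1.69 ± 0.14 (adjusted p = 2.9e-07 by limma). Rpl41, with 933 and 1194 against 2716 and 4316, differed by -1.69 ± 0.24 (adjusted p = 7.8e-05 by limma), and Rps19 by -1.5 ± 0.14 (adjusted p = 8.0e-07 by limma). Neutrophil and Monocyte arrays did not overlap for these 3 genes. Rpl14 (-1.87 ± 0.33) and Rpl35 (-1.46 ± 0.16) completed the 5 with the largest differences, and the other 6 called were Rpsa, Rpl22l1, Rpl22, Rps18, Rpl12 and Rps27l. For Rpl41 and Rpl35 the direction depended on the probe set: with only probe sets of plain type (names ending in _at without a letter for shared sequence) the differences were 0.21 and 0.83, neither past the test. The plain probe set of Rpl35 was near the floor, with a mean intensity of 25.8 and r = 0.35 with the one used over the population means, while its other 4 had means of 2582 to 5987 and r of 0.974 to 0.996. That of Rpl41 had a mean of 279.7 and r = 0.80. In Monocyte the neutrophil markers Ltf and Camp, which encode granule proteins, read 9475 and 10821 (means of 2 arrays), against 10796 and 12205 in Neutrophil.

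Erythroblasts had lower levels than LinNeg for 13 of 47 members and higher levels for none, in a comparison where 43.9% of all tested genes were called, 14.6% higher and 29.3% lower. With the deposited scaling the members' share of calls in both directions together was thus below that of all genes. For lower calls alone the shares were close, at 27.7% of the members and 29.3% of all genes. Their median log2 difference was -0.39, against -0.19 over all genes. Quantile normalization moved the median to -0.85 and the count to 21 members, 20 lower and 1 higher. Of all genes 6232 of 14161 were called under that setting, 2466 higher and 3766 lower. In both directions together the shares of members and of all genes were about equal. The share called lower was larger among the members than among all genes. Of the 13 called, 8 were dim: Rps4l, Rpl12, Rps25, Rpl14, Rps6, Rpl37, Rpl7l1 and Rps27l. The 5 bright ones were Rpl22l1 (-1.29 ± 0.24), Rps15 (-1.25 ± 0.16), Rpl11 (-1.17 ± 0.15), Rpl27 (-1.17 ± 0.19) and Rpl37a (-1.07 ± 0.14).

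Rpl11, which as part of the free 5S particle is known to bind Mdm2, read 3106 and 2831 in LinNeg and 1153 and 1493 in Erythroblast (adjusted p = 2.6e-06 by limma). Rps15 read 4604 and 4120 in LinNeg and 1702 and 1949 in Erythroblast (adjusted p = 1.5e-06 by limma). In both genes the arrays of the populations stood well apart. A second probe set of Rps15 differed by 0.01 in the same comparison, so this fall was seen by only 1 of its 2 probe sets. The reverse held for Rpl22, whose brightest probe set gave -0.04 and whose other 2 gave -2.98 and -3.53. Rpl22 was not alone in this. The brightest probe set of Rps7 gave 0.21 and its other -1.46, and that of Rps10 gave 0.03 and its others -0.36 to -2.40. In other genes the probe sets gave like values, as in Rps28 with -0.02, 0.02 and 0.14.

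Among the dim members the falls in Erythroblast were larger. Rps25, a small subunit protein known for its part in translation from viral internal entry sites, fell by 3.08 ± 0.25 on the log2 scale (adjusted p = 3.5e-09 by limma), from 567 and 613 to 68.7 and 59.3. Rps6, the substrate of S6 kinase, fell by 2.53 ± 0.18 (adjusted p = 7.6e-10 by limma), from 843 and 849 to 134 and 148. The Erythroblast and LinNeg arrays did not overlap for either gene. For the 9 canonical dim members the shared probe sets gave a much smaller median difference of -0.20 (range -1.0 to 0.66), where their own 8 tested probe sets gave -2.42 (range -3.25 to 0.76). A shared probe set is annotated to several symbols, and which of the values follows the gene's messenger RNA was not tested.

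Against the mean of the other 7 mature populations, Erythroblast was lower for 11 of 47 members and higher for none, with 46.4% of all tested genes called, 17.6% higher and 28.8% lower. The median over the members was -0.25, and the 5 bright members called were Rps15 (-1.55 ± 0.12), Rpl37a (-1.38 ± 0.10), Rps9 (-1.27 ± 0.09), Rpl11 (-1.23 ± 0.12) and Rps24 (-1.0 ± 0.13). Rps9 read 2207 and 2269 in the Erythroblast arrays and at least 3635 in every other array of a mature population. The largest differences of dim members were those of Rps4l (-3.18 ± 0.26), Rpl37 (-2.66 ± 0.15), Rps25 (-2.18 ± 0.19), Rpl12 (-1.82 ± 0.17) and Rpl7l1 (-1.74 ± 0.18).

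Stem cell enriched KSL cells and LinNeg cells did not differ for any of the 47 members (limma), and 1 member had an unadjusted p under 0.05. Of all tested genes 5.53% were called in this comparison, 3.07% higher and 2.45% lower. The member differences ran from -0.56 to 0.39 with a median of -0.01, and over the 35 bright members from -0.34 to 0.22. Against the mean of the 8 mature populations KSL was higher for 5 members and lower for none, with 23.2% of all tested genes called, 16.2% higher and 7% lower. All 5 were dim: Rpl14 (2.11 ± 0.25), Rps6 (1.59 ± 0.14), Rpl12 (1.48 ± 0.17), Rps4l (1.24 ± 0.26) and Rps25 (1.04 ± 0.18). The brightest shared probe sets of the 9 canonical dim members did not repeat these rises. Their median in this comparison was -0.07 (range -0.60 to 0.36), where the genes' own 8 tested probe sets gave 0.67 (range -0.57 to 2.11). Which of the values follows the messenger RNA was not tested. Rps6 read 1004 and 1055 in KSL and at most 937 in any mature array. The bright members lay between -0.41 and 0.54 with a median of -0.03, and none was called. The median over all 47 members was 0.00 with the deposited scaling and 0.42 after quantile normalization, so that the level of the family in KSL relative to mature cells depended on the scaling.

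Within the lymphoid populations few members were called. B cells differed from the mean of CD4T and CD8T for 1 member, the paralog Rps4l, where 13% of all tested genes were called, 5.91% higher and 7.08% lower. The bright members were all slightly lower in B, by 0.08 to 0.56 on the log2 scale, and none was called. CD4T and CD8T differed for Rpl14 alone (-1.23 ± 0.33, adjusted p = 0.040 by limma), with 3.21% of all tested genes called, 2.13% higher and 1.07% lower. That call was lost in 12 of the 20 fits that left out 1 array. Rpl14 read 111 and 151 in CD4T and 322 and 304 in CD8T.

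NK cells were lower than NKT cells for 4 members and higher for none, with 11.3% of all tested genes called, 6.86% higher and 4.47% lower. The called members were Rpl39l (-2.28 ± 0.51), Rpl22l1 (-1.15 ± 0.24), Rpl12 (-1.06 ± 0.22) and Rpl14 (-1.05 ± 0.33). By adjusted p alone 36 members were lower in NK, most by less than a log2 difference of 1. The shares of all genes above are for calls and cannot be set beside this looser count. The median over the members was -0.63, against -0.13 over all genes. Rpl22l1 read 1560 and 1701 in NK and 4061 and 3230 in NKT, without overlap. Without the first NKT array 1 of these calls was left, and after quantile normalization the median was -0.14. The NK arrays differed from NKT in their monocyte markers as well, given above, and in the 5 neutrophil markers, whose sum was 5269 and 6481 in NK and 80.6 and 748 in NKT. The part of these markers' cells in the difference was not tested.

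Compared in all 45 pairs, a set of tests added after the data had been seen, the populations separated by the ribosomal protein genes into few levels. Pairs with Neutrophil had 11 to 39 members called. The highest count, 39 of 47, was reached by CD4T against Neutrophil, where 36.2% of all tested genes were called, and by CD8T against Neutrophil, with 37.5%. KSL against Neutrophil had 28 members called and 41.9% of all genes, and LinNeg against Monocyte 10 members and 30.2%. CD8T against Monocyte had 32 members called and 30.4% of all genes. Erythroblast against Monocyte had 5 members called although 41.5% of all genes were, and NK against Monocyte had 3, with 19.6% of all genes. B against NKT, like KSL against LinNeg, had no member called at 13.3% of all genes; the 2 medians were -0.12 over members and -0.08 over all genes. Next to each other in the order of levels, CD8T and NKT differed for 1 member (3.13% of all genes), and so did CD4T and NKT (4.08%). CD8T against NK stood out within the lymphoid cells with 12 members, of which 11 were higher in CD8T, and 15.6% of all genes.

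**Figure D4:**
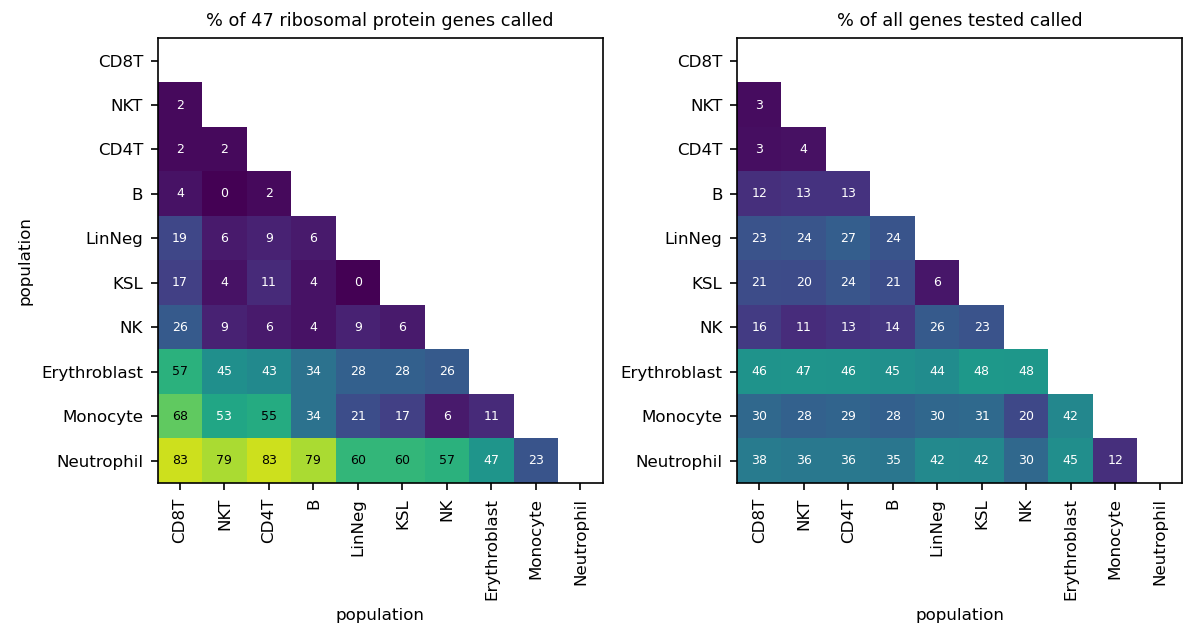
Percent of the 47 tested ribosomal protein genes (left) and of all 14063 tested genes (right) called between each pair of populations, ordered by the members' median level. The members' counts are highest in the bottom row, Neutrophil, where they reach 39 of 47, whereas over all genes the pairs of Erythroblast run from 41.5 to 48.1.

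Some members departed from the common level. When the median of the members was subtracted array by array from every gene, 40 of 47 members still differed among populations by the F test (limma), where 97.2% of all tested genes did. This measures unequal change only, since the median is made of the members. Rps29, a small zinc-binding protein of the small subunit, was the flattest together with Rps14, a protein of its platform. Rps29 read 10089 and 8850 in Neutrophil, 10958 and 9576 in Monocyte, and 16582 and 12492 in CD8T, and its range of 0.75 over the populations was a small part of the 3.64 of Rps19. Its Neutrophil arrays lay within the values of the other populations. Relative to the members' median, lymphoid minus myeloid called 1 member higher and 8 lower, with 73% of all tested genes called. In it the difference was -1.25 ± 0.09 for Rps29 (adjusted p = 1.5e-11 by limma) and -1.17 ± 0.10 for Rps14 (adjusted p = 1.9e-10 by limma); without that subtraction both were slightly positive, at 0.29 and 0.38. The other 2 probe sets of Rps29 had ranges of 0.78 and 0.87 and the other of Rps14 a range of 0.91, and all of these are of the x type, which may bind related sequences.

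Rps9 kept its level in Neutrophil, with 3988 and 4062 against 3753 and 3635 in Monocyte, so that relative to the members' median it was higher in Neutrophil by 1.16 ± 0.14 (adjusted p = 3.8e-06 by limma). In that relative comparison 43.1% of all tested genes were called, against 4 of the 47 members. Rps15 and Rpl37a were lower in Erythroblast than in other mature cells also relative to the members' median, a comparison that called 48.2% of all tested genes, by -1.24 ± 0.10 (adjusted p = 1.1e-10 by limma) and -1.08 ± 0.10 (adjusted p = 2.2e-09 by limma). Rplp0 (range 1.20), Rpl7 (1.21) and Rps28 (1.34) were the least varying bright members after Rps14 and Rps29. Over the 35 bright members brighter probe sets had the smaller ranges, with Pearson's r = -0.52 and Spearman's rho = -0.45 between mean log2 level and range, as a description across genes. Whether the brightest probe sets were near the top of their response was not tested.

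The paralogs did not follow their parent genes in a uniform way. Rpl22l1 and Rpl22, a pair in which Rpl22 is known for its role in T cell development, had the same highest and lowest populations. Rpl22 read 11092 and 9262 in CD8T and 1601 and 1734 in Neutrophil, and Rpl22l1 5425 and 4393 against 366 and 441. In both genes the CD8T arrays were the highest population and the Neutrophil arrays the lowest, without overlap. The ranges were 2.60 for Rpl22 and 3.58 for Rpl22l1. In Erythroblast minus LinNeg the pair parted, with -0.04 ± 0.14 for Rpl22 and -1.29 ± 0.24 for Rpl22l1, of which only the latter was called; the other 2 probe sets of Rpl22 gave the lower values above.

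Rps4l, a paralog of Rps4x, ran against the family. It read 138 and 224 in Monocyte, 160 and 189 in NK, 134 and 183 in Neutrophil, and 138 and 146 in KSL, but 3.68 and 13.5 in CD4T, 23.4 and 30.0 in CD8T and 3.17 and 1.74 in Erythroblast. The CD4T, CD8T and Erythroblast arrays were all below those of the other populations, and those of CD4T and Erythroblast lay at about the pseudocount of 6.75, where a log2 difference understates the change. Lymphoid minus myeloid was -1.48 ± 0.20 (adjusted p = 3.7e-06 by limma), B minus T was 2.34 ± 0.30 (adjusted p = 6.9e-06 by limma), and Erythroblast minus LinNeg was -3.66 ± 0.34 (adjusted p = 3.3e-08 by limma). For Rps4x the same 3 differences were 0.88, -0.20 and 0.08, none called.

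Rps27l, known in other systems as a p53 target, was highest in the progenitor fractions, with 1273 and 1125 in LinNeg and 924 and 708 in KSL, and lowest in Neutrophil with 189 and 226. Every LinNeg and KSL array lay above all arrays of mature populations. KSL minus mature was 1.00 ± 0.15 (limma SE) and fell just short of the log2 difference of 1 that a call needs, and Erythroblast minus LinNeg was -1.0 ± 0.20 and just passed it (adjusted p = 3.3e-04 by limma). The probe set of Rps27 itself was dim (77.8 on average) and called in none of the 9 comparisons. Rpl39l, best known from testis, was dim throughout, with 88.8 and 33.3 in NKT, 7.04 and 5.0 in NK, and 1.41 and 13.6 in Neutrophil. Rpl7l1 was lower in Erythroblast, at 87.5 and 96.7, than in any other array (Erythroblast minus LinNeg -1.97 ± 0.24, adjusted p = 9.6e-07 by limma). The brightest probe set of Rpl7 differed by 0.00 between Erythroblast and LinNeg, while its further probe sets gave 0.08 and -1.18.

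**Figure D5:**
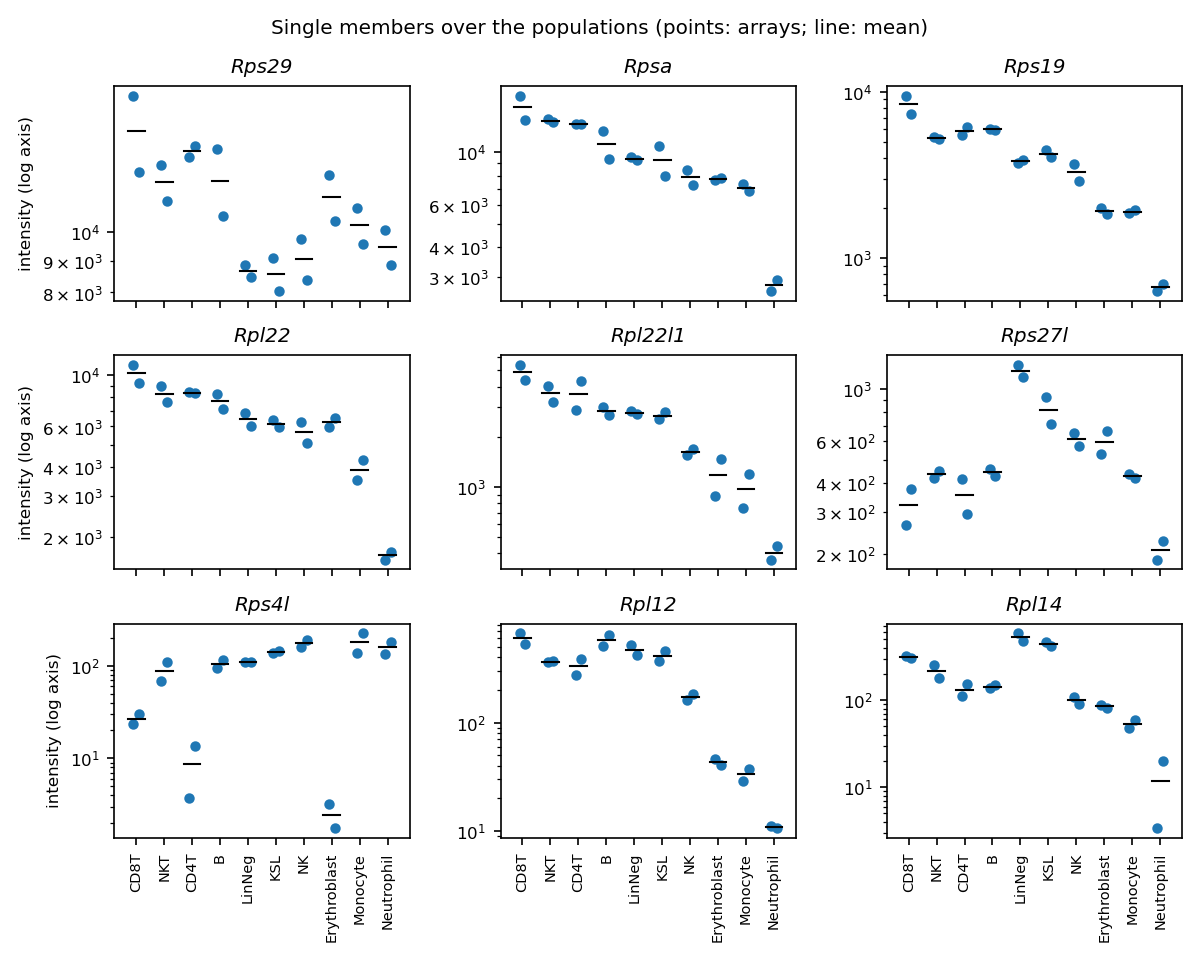
Intensity of 9 ribosomal protein genes in each of the 20 arrays on log axes that differ between panels, with populations ordered by the members' median and a line at each mean. Rps19, Rpl22 and Rpl22l1 fall toward Neutrophil, Rps29 stays within 8050 to 16582, Rps27l peaks at 1273 in LinNeg, and Rps4l drops below 15 in CD4T and Erythroblast.

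The counts did not rest on the choice of 1 probe set per gene in the lymphoid and myeloid comparison. The members had 105 probe sets of their own, 98 of them tested, and in a fit over all probe sets 63 of these were higher in lymphoid cells and 1 was lower, while 27.0% of all probe sets were called. Of 107 tested probe sets shared with other symbols, 69 were higher and none lower, with a median of 1.17. For Erythroblast minus LinNeg 32 of the members' own 98 were lower and none higher, with a median of -0.58. Of all probe sets 37.2% were called in that contrast. In 20 genes with several tested probe sets, 38 of the 51 other probe sets had a Pearson's r above 0.8 with the one used over the 10 population means, 3 had an r below 0, and 47 were positive in lymphoid minus myeloid. Those below 0 belonged to Rpl37a, Rps24 and Rps3 and were dim, with mean intensities of 97.3, 36.2 and 12.6.

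Genes around the ribosome were read from lists drawn up with earlier results of these data known, and some genes stand on more than 1 list. The background shares given above hold for their counts too: of all tested genes 17.6% were higher and 12.1% lower in lymphoid than in myeloid cells, 29.3% were lower in Erythroblast than in LinNeg, and 16.2% were higher in KSL than in mature cells. Of 40 tested ribosome assembly factors 32 were higher in lymphoid than in myeloid cells and none lower, with a median log2 difference of 2.14, and 35 were lower in Erythroblast than in LinNeg, with a median of -2.89. For the ribosomal proteins these medians were 1.31 and -0.39. Fbl, the methyltransferase of box C/D particles, differed by 3.49 ± 0.18 and -3.73 ± 0.30, and Npm1, a nucleolar chaperone, by 3.23 ± 0.13 and -2.99 ± 0.23. In KSL 24 of the assembly factors were higher than in mature cells and none lower. Myc, a regulator of both groups, was higher in lymphoid cells by 3.76 ± 0.19 and lower in Erythroblast than in LinNeg by -6.24 ± 0.32.

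Other genes with known TOP messenger RNAs moved nearer to the ribosomal proteins, with 8 of 15 higher in lymphoid cells, none lower and a median of 1.08, and 4 of 15 lower in Erythroblast than in LinNeg. Elongation factors had 7 of 11 higher in lymphoid cells, initiation factors 9 of 34, and ribosome rescue and quality control genes 5 of 14, with none lower in these 3 lists. Among the proteins of the mitochondrial ribosome, which works in a separate compartment, 29 of 76 were higher and 1 lower. The mTORC1, LARP1 and S6 kinase list had 1 of 21 higher and 4 lower. Fau, whose product carries ribosomal protein eS30 and whose name the rule does not take, differed by 0.76 ± 0.09 and was not called.

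The genes outside the family whose 10 population means were most like the median profile of the members were Eef2, the translocase of elongation (r = 0.984), and Tcf12, an E protein (r = 0.984). They were followed by Wrnip1 (0.975), Eef1b2, a subunit of the exchange factor of elongation factor 1 (0.974), Pop5 (0.973) and Pdlim1 (0.971). Eef2 was higher in lymphoid than in myeloid cells by 1.94 ± 0.09 and Eef1b2 by 1.57 ± 0.10 (limma SE), with lymphoid means of 3973 and 4739 and myeloid means of 1029 and 1572.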

How the data were processed

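The authors deposited 1 linear intensity per probe set and array; the labels do not name the software or background correction behind them, and the mean without the lowest and highest 2% was 100 in every array, tested on the values. Of 45101 probe sets, 64 controls were left out, and 34945 had 1 gene symbol in the platform annotation, 932 several and 9160 none. Updating symbols through the RefSeq table of GRCm38.p6 changed 0 of them and left 204 unmatched. Intensities were turned to log2(intensity + 6.75), a pseudocount set at the 25th percentile of their values, and each gene was read from its brightest probe set by mean intensity. Genes whose highest population mean was above 4.89, the median of all log2 values, were tested. Changes of dim genes are understated on this scale, and precision is limited by 2 arrays per population.

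All 20 arrays were fitted with limma 3.58.1 in R 4.3.3 (lmFit, then eBayes with a trend) and 1 factor of 10 populations, with 10 residual and 8.46 prior degrees of freedom. P-values of the 9 contrasts were adjusted by the Benjamini-Hochberg method over all 14063 genes. Comparisons share arrays, so their counts are not independent. On simulated data with 100 of 14063 genes changed by 1.5 on the log2 scale, the lymphoid minus myeloid contrast recovered 95% of them. Where a gene was named, the rule took up to 5 called members per direction and contrast with the largest differences, the members with the largest and smallest ranges, all paralogs with their parents, listed genes, and the 10 genes most like the members; values of further members are given where a count or a probe set turned on them and were chosen after they had been seen. Members and lists were chosen with earlier results of these data known. Same-numbered replicates did not deviate together: over 45 pairs of populations the correlation of their deviations ran from -0.09 to 0.21 and was above 0.1 in 1, so the fits are unpaired. Promoter sequences came from RefSeq. Alternatives covered the scaling, pseudocount, filter, probe set choice, replicate block, a test against the log2 threshold, fits of only the populations compared and leaving out each array.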

Additional observations from a re-analysis of the deposited data

How the results depend on the processing

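In the lymphoid minus myeloid contrast 25 to 34 members were called under all settings but plain probe sets. Leaving out each array in turn gave 30 to 32 members for lymphoid minus myeloid, 10 to 12 for Neutrophil minus Monocyte, 10 to 14 for Erythroblast minus LinNeg, 10 to 13 for Erythroblast minus other mature cells, 4 to 6 for KSL minus mature, 1 to 4 for NK minus NKT and 0 to 2 for CD4T minus CD8T. Quantile normalization gave 20 for Neutrophil minus Monocyte, 21 for Erythroblast minus LinNeg and 2 for CD4T minus CD8T, and moved the median of all genes in Erythroblast minus LinNeg from -0.19 to -0.06. Of all 14161 genes tested under it 1513, 6232 and 435 were called in these 3 contrasts. In the main fit these were 1712, 6168 and 451 of 14063. CD4T minus CD8T had 3 with array medians centred, 2 with the stricter filter, 2 with the mean of probe sets and 2 with the replicate block, which changed no other count of members. The calls over all genes were, in that order, 442 of 14134, 418 of 9393, 373 of 12938 and 454 of 14063. The mean of probe sets gave 7 for Neutrophil minus Monocyte, and a pseudocount at the 50th percentile gave 3 for KSL minus mature and 2 for NK minus NKT. Over all genes 1278 of 12938 were called in the first case, and 2380 and 1401 of 14117 with that pseudocount. With probe sets of plain type alone, only 24 members were tested. Of these, 15 were called for lymphoid minus myeloid, against 32 of 47 in the main fit. KSL minus mature had 9 of the 24, against 5 of 47, and Neutrophil minus Monocyte had 4 of the 24. Of all 12453 genes tested under that setting, 3587, 2774 and 1361 were called in these 3 contrasts. The F test and the relative F test each gave 22 of the 24 members. Rpl41 and Rpl35 reversed under that setting in Neutrophil minus Monocyte, to 0.21 and 0.83, and the cause was not tested. Testing against a log2 difference of 1 left 2 for KSL minus mature, 0 for CD4T minus CD8T, 0 for NK minus NKT, 1 for Neutrophil minus Monocyte and 7 for Erythroblast minus LinNeg. Of all 14063 genes it left 1029, 55, 482, 211 and 3340 in the same order. With bright members only, KSL minus mature, B minus T and CD4T minus CD8T had 0, NK minus NKT 1, and each Erythroblast contrast 5. Of all 14051 genes then tested 3253, 1826, 449 and 1591 were called in the first 4 of these contrasts. Erythroblast minus LinNeg had 6160 and Erythroblast minus other mature cells 6520.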
